A study of Mus musculus with 6 samples.

Results

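This account covers TGF-beta and BMP signalling in lymphatic endothelial cells of mouse melanoma, through 10 gene symbols chosen by name: the receptors Tgfbr1, Tgfbr2, Eng, Acvrl1 and Bmpr2, the inhibitory Smads Smad6 and Smad7, and the Id genes Id1, Id2 and Id3. Of the 10, 9 are among the 13454 genes of the deposited table, and all 9 passed the filter for testing, a mean of at least 1 CPM (reads scaled to the size of the library). Smad6 was not analysed here. The tumours were B16-OVA-VEGFC, a transplanted mouse melanoma line that drives lymphatic vessel growth. The hosts were mice with Ch25h deleted in lymphatic endothelium (Ch25h KO, 3 libraries) or littermates with the gene intact (WT, 3 libraries). Libraries labelled Ch25h KO are titled HE, an abbreviation that the labels do not spell out. Both groups carried the same tumour, and the genotype labels place the deletion in lymphatic endothelial cells. Ch25h in the tumour and in other host cells was not measured here. Each library is bulk RNA of cells sorted from the tumour as CD31+ GP38+ and without CD45. The sources used here do not give the driver of the deletion or the age and sex of the mice.

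Ligands of the TGF-beta family bring together a type II and a type I receptor kinase at the cell surface, and the type I kinase phosphorylates Smad proteins that enter the nucleus with Smad4. The TGF-beta arm runs mainly through Tgfbr2, Tgfbr1, Smad2 and Smad3. The BMP arm of endothelium runs through Bmpr2, Acvrl1 and the co-receptor Eng to Smad1 and Smad5, and switches on Id1, Id2 and Id3. Id proteins bind E proteins and other helix-loop-helix factors and keep them off DNA, while Smad6 and Smad7 are induced by the pathway and dampen it. In blood and lymphatic vessels Acvrl1 and Eng are known for hereditary vessel malformations, and the balance of both arms is known to shape lymphatic sprouting and identity.

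Tgfbr1 and Tgfbr2, the pair that binds TGF-beta, had the same order of libraries within each genotype, as the values further on show. An order shared by both genotypes was found in 23.3% of all tested genes, and this one in 5.53%. The 250 bases before 1 RefSeq start site of each gene are given as a description, and a link to that order was not tested. They are read on the gene's strand of GRCm38.p6, the assembly of the mm10 build. The Tgfbr1 window is chr4:47352972-47353221 on the plus strand and the Tgfbr2 window is chr9:116175364-116175613 on the minus strand. No annotated exon lies in either. Capitals mark the Smad-binding letters searched on both strands, GGCGCC, a BMP-type Smad site, and GTCT, the Smad box, which reads AGAC on the other strand. No match of one motif overlaps a match of the other.
Tgfbr1: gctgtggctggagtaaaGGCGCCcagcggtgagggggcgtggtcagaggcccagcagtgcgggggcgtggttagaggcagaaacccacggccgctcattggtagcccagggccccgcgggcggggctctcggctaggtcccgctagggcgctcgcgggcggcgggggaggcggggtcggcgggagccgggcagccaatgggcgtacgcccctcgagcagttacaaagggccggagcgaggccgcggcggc
Tgfbr2: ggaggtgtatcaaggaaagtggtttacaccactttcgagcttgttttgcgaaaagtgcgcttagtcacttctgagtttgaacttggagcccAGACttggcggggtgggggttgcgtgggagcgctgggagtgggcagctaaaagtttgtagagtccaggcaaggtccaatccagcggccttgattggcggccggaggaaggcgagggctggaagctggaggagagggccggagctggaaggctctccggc
The Tgfbr1 window shown holds 1 GGCGCC and 0 GTCT, and the Tgfbr2 window holds 0 GGCGCC and 1 GTCT. Tgfbr1 has another RefSeq start site, whose window (chr4:47385966-47386215) is not shown and holds 0 GGCGCC and 2 GTCT. Of 32851 promoter windows of this length, 9.59% hold GGCGCC and 82.9% hold GTCT. A match is a run of letters and says nothing of a factor bound there.

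Libraries held 36556824 to 46165273 reads of listed genes, and 1 read was worth 0.0216 to 0.0268 CPM. Ch25h had 0, 1 and 117 reads in libraries 1, 2 and 3 of Ch25h KO, against 3786, 3725 and 4913 reads in libraries 1, 2 and 3 of WT. Ch25h KO library 3 thus held some Ch25h reads, with an exact 95% Poisson interval of 96.8 to 140 reads. The source of these reads was not tested. Ch25h averaged 0.991 ± 1.70 CPM in Ch25h KO against 92.6 ± 12.1 CPM in WT (SD, n = 3 each). On the log2 scale the difference was -5.87 ± 0.47 (SE), with an adjusted p of 0.00365 in limma, but no call in edgeR (adjusted p = 0.839) or DESeq2 (adjusted p = 0.208), and its size depends on the added 1 CPM because a library was at 0. In limma it was the single gene of 11980 called at an adjusted p under 0.05. The genes of the markers sorted for, and the lymphatic gene Prox1, were present in all 6 libraries. Pecam1, which encodes CD31, averaged 723 ± 123 CPM in Ch25h KO against 705 ± 38.8 CPM in WT, Pdpn, which encodes GP38, 155 ± 13.9 CPM in Ch25h KO against 179.8 ± 11.5 CPM in WT, and Prox1, the lymphatic master regulator, 319 ± 77.8 CPM in Ch25h KO against 451 ± 180 CPM in WT (SD, n = 3 each). Among 7 markers of blood endothelium, Flt1, Nrp1 and Esm1 stayed under 5 CPM in every library, while Plvap stood at 1090 to 2519 CPM, Cd34 at 235 to 499 CPM, Nos3 at 112 to 189.9 CPM and Emcn at 14.3 to 42.5 CPM over the 6 libraries.

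No receptor, inhibitory Smad or Id gene measured here differed between the genotypes beyond the spread of the libraries. With limma, 0 of the 9 members were called, where 0.00835% of all tested genes were. At an unadjusted p under 0.05 there were 0 of 9, beside 5.41% of all genes (1.62% higher and 3.79% lower in Ch25h KO). On the recovered reads, edgeR called 0 of 9 (0 at an unadjusted p under 0.05, beside 5.46% of all genes) and DESeq2 called 0 of 9, beside 0.0919% of all genes (0 at an unadjusted p under 0.05, beside 6.27% of all genes). The Ch25h KO and WT values overlapped in all 9, while 10.2% of all tested genes had no overlap (4.38% higher and 5.78% lower in Ch25h KO). The log2 fold changes, Ch25h KO minus WT on log2(CPM + 1), had a median of 0.12 and ran from -0.28 to 0.31, with 7 members higher and 2 lower, where 49.6% of all tested genes were higher. Without a library each, the median ran from 0.0089 (without Ch25h KO library 2) to 0.32 (without Ch25h KO library 1), with 0.03 without Ch25h KO library 3 or WT library 2. The number higher was 5 without Ch25h KO library 2, WT library 1 or WT library 2. The median over all tested genes was -0.00. Adjusted p-values of the members ran from 0.973 to 0.994 (limma). Without Ch25h KO library 3, which held some Ch25h reads, 0 members were called and the log2 fold changes ran from -0.29 to 0.29.

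**Figure D1:**
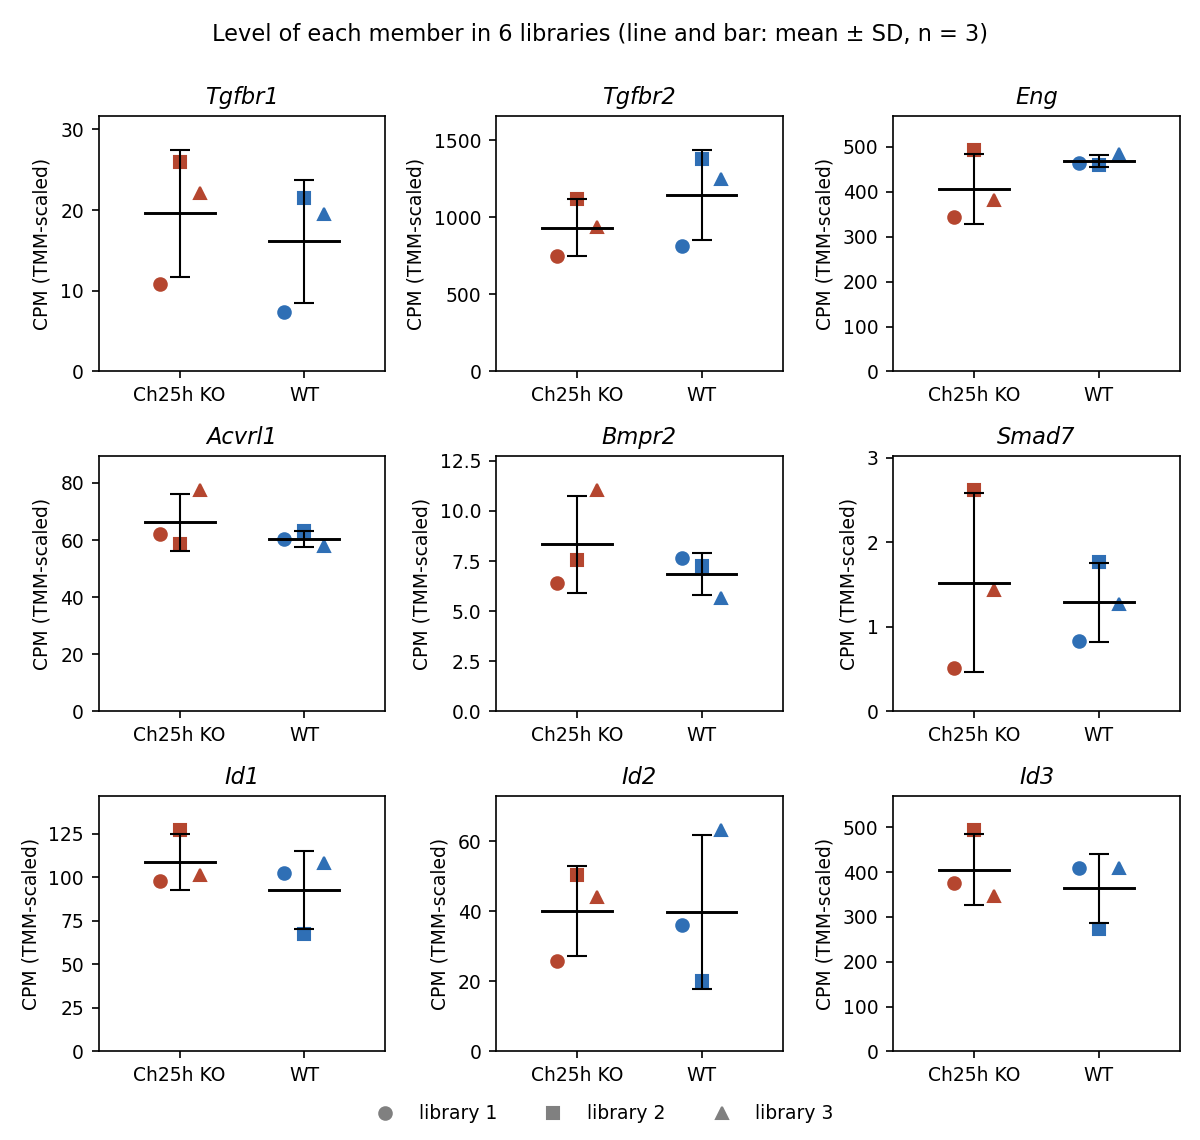
CPM of each of the 9 members in Ch25h KO libraries (left in each panel) and WT libraries (right), with symbols for library 1, 2 and 3, a line for the mean and a bar for the SD (n = 3). In every panel the values of the genotypes overlap, from Smad7 under 3 CPM to Tgfbr2 at 745 to 1374 CPM.

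Tgfbr2 is the type II receptor that binds TGF-beta first. It stood at 745, 1115 and 937 CPM in libraries 1, 2 and 3 of Ch25h KO, against 812, 1374 and 1245 CPM in libraries 1, 2 and 3 of WT. Library 1 was the lowest and library 2 the highest of each genotype, and the groups overlapped. The mean was 932 ± 185 CPM in Ch25h KO against 1144 ± 294 CPM in WT (SD, n = 3 each). On the log2 scale this is a difference of -0.28 ± 0.23 (SE; limma, adjusted p = 0.973; exact permutation p = 0.4, two-sided, where 3 libraries against 3 cannot go below 0.1). The 95% interval of the fold was 0.579 to 1.18.

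Tgfbr1 is the type I kinase that Tgfbr2 recruits and switches on. It stood at 10.8, 26.0 and 22.1 CPM in libraries 1, 2 and 3 of Ch25h KO, against 7.36, 21.5 and 19.5 CPM in libraries 1, 2 and 3 of WT. Again library 1 was the lowest of each genotype, and the groups overlapped. Tgfbr1 had a log2 fold change of 0.31 ± 0.41 (limma, SE; adjusted p = 0.976), with a 95% interval of the fold of 0.651 to 2.36, the widest among the receptors.

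Eng, or endoglin, is the co-receptor of endothelial cells that presents BMP ligands to Acvrl1. It stood at 344, 494 and 382 CPM in libraries 1, 2 and 3 of Ch25h KO, against 463, 460 and 485 CPM in libraries 1, 2 and 3 of WT. The Ch25h KO values spread from below all WT values to above them, while the WT values lay close together. Eng differed by a log2 fold change of -0.22 ± 0.16 (limma, SE; adjusted p = 0.973; exact permutation p = 0.4). Exons of Eng share 61 bases with Fpgs on the other strand, and the kit does not mark strand, so reads of those bases cannot be told apart.

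Acvrl1 is the type I receptor by which endothelium reads its circulating BMP ligands. It stood at 62.0, 58.8 and 77.7 CPM in libraries 1, 2 and 3 of Ch25h KO, against 60.2, 63.1 and 57.8 CPM in libraries 1, 2 and 3 of WT. Of the members it had the narrowest range, 1.34 times between the lowest and highest library. For Acvrl1 the log2 fold change came to 0.12 ± 0.15 (SE; limma, adjusted p = 0.973), the 95% interval of the fold was 0.857 to 1.38, and without Ch25h KO library 3, the high one, the log2 fold change was 0.00. It shares 127 exon bases with the antisense transcript Gm16031.

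Bmpr2 is the type II receptor that pairs with Acvrl1. It stood at 6.41, 7.54 and 11.1 CPM in libraries 1, 2 and 3 of Ch25h KO, against 7.66, 7.27 and 5.66 CPM in libraries 1, 2 and 3 of WT. Both the highest library, Ch25h KO library 3, and the lowest, WT library 3, were the same as for Acvrl1. Its log2 fold change came to 0.23 ± 0.26 (SE; limma, adjusted p = 0.973), and 0.03 without Ch25h KO library 3.

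Smad7 is the inhibitory Smad that blocks Tgfbr1 and marks it for degradation, and it was the lowest member. It had 19, 113 and 57 reads in libraries 1, 2 and 3 of Ch25h KO, against 38, 74 and 59 reads in libraries 1, 2 and 3 of WT. That is 0.510, 2.62 and 1.44 CPM in Ch25h KO and 0.832, 1.76 and 1.27 CPM in WT. Exact 95% Poisson intervals of 11.4 to 29.7 reads in Ch25h KO library 1 and 93.1 to 136 reads in Ch25h KO library 2 did not meet, so libraries of the same genotype differed by more than counting error. The log2 fold change was 0.07 ± 0.39 (SE; limma, adjusted p = 0.994). On the recovered reads edgeR gave 0.25 (adjusted p = 0.986).

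Id1 stood at 97.7, 127 and 101 CPM in libraries 1, 2 and 3 of Ch25h KO, against 103, 67.3 and 109 CPM in libraries 1, 2 and 3 of WT. WT library 2 lay below the other values, which ran from 97.7 to 127 CPM. The mean was 109 ± 16.3 CPM in Ch25h KO against 92.8 ± 22.3 CPM in WT (SD, n = 3 each). For Id1 the log2 fold change came to 0.25 ± 0.20 (SE; limma, adjusted p = 0.973; exact permutation p = 0.6), and 0.03 without WT library 2.

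Id3, the most abundant Id gene, stood at 375, 495 and 346 CPM in libraries 1, 2 and 3 of Ch25h KO, against 408, 274 and 409 CPM in libraries 1, 2 and 3 of WT. The highest and the lowest library were those of Id1. Id3 had a log2 fold change of 0.16 ± 0.20 (limma, SE; adjusted p = 0.973), and -0.03 without WT library 2. Id2, which is also a target of other pathways, stood at 25.8, 50.4 and 44.0 CPM in libraries 1, 2 and 3 of Ch25h KO, against 36.1, 20.1 and 63.4 CPM in libraries 1, 2 and 3 of WT. WT libraries 2 and 3 held both its lowest and its highest value, 3.15 times apart. Its log2 fold change was 0.10 ± 0.38 (SE; limma, adjusted p = 0.989).

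**Figure D2:**
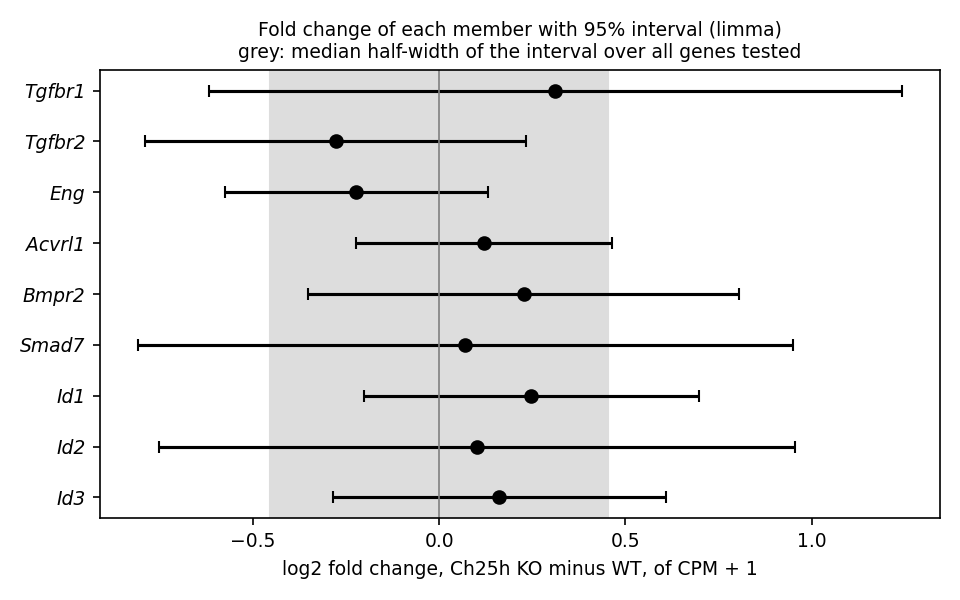
Log2 fold change of each member, Ch25h KO minus WT on log2(CPM + 1), as a point with its 95% interval from limma. All 9 intervals include 0, and the grey band of ± 0.45 is the median half-width of the interval over all 11980 genes tested.

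Several members varied alike over the libraries, though not always in the same order. Ch25h KO library 3 lay above Ch25h KO library 1 in Id1 but below it in Id3. Id1 and Id3 kept nearly the same proportion in every library. The ratio of their CPM values, without length correction, was 0.261, 0.258 and 0.292 in libraries 1, 2 and 3 of Ch25h KO, against 0.251, 0.246 and 0.265 in libraries 1, 2 and 3 of WT. It varied 1.19 times from the lowest to the highest library, while Id1 itself varied 1.89 times and Id3 1.80 times. With each gene centred on its own mean over the 6 libraries, Id3 was the gene nearest to Id1 of 9806 candidates with a mean of at least 5 CPM after predicted genes, clones and pseudogenes were left out by name. The root mean square difference was 0.0791 on the log2 scale, beside a deviation of 0.275 of Id1 around its own mean. Next came Troap (0.107), Fbxl8 (0.111) and Maml2, a co-activator of Notch (0.113). In the other direction Id1 was number 2 in nearness to Id3. Id2 was number 5310 in nearness to Id1, and its ratio to Id3 varied 2.25 times. These are descriptions over 6 libraries, with no test.

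Acvrl1 varied little, with a deviation of 0.140 around its own mean over the 6 libraries. The nearest genes were Ppp2r5b, a regulatory subunit of protein phosphatase PP2A (0.0221), Ckap2 (0.0332), Cyb5r3, a cytochrome reductase (0.0355), Elk3, an ETS-family transcription factor of endothelium (0.0387), and C2cd2l (0.0398). Its partner Eng was number 6498 and its partner Bmpr2 number 1384.

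WT library 2, the lowest of the 6 in Id1, Id2 and Id3, was also the lowest in the summed markers of leukocytes, fibroblasts and melanoma cells and in dissociation stress genes, but not in mural markers. The 12 leukocyte markers in the table, of 14 listed, summed to 40.7 to 177 CPM in Ch25h KO against 28.8 to 368 CPM in WT, with 28.8 CPM in WT library 2. The 7 fibroblast markers of 8 listed summed to 209 to 229 CPM in Ch25h KO against 117 to 501 CPM in WT, with 117 CPM in WT library 2. Much of that sum is Thy1, which is also counted among the lymphatic markers and stood at 194, 133 and 159.8 CPM in libraries 1, 2 and 3 of Ch25h KO, against 240.1, 106 and 137 CPM in libraries 1, 2 and 3 of WT. Melanoma markers (9 of 9) summed to 146 to 355 CPM in Ch25h KO against 130 to 289 CPM in WT, with WT library 2 at 130.0 CPM. The 13 dissociation stress genes, such as Fos and Dusp1, summed to 3266 to 5911 CPM in Ch25h KO against 3058 to 8216 CPM in WT, with 3058 CPM in WT library 2. Ptprc, which encodes CD45, stood at 0, 19.7 and 1.69 CPM in libraries 1, 2 and 3 of Ch25h KO, against 3.13, 0 and 0.994 CPM in libraries 1, 2 and 3 of WT. Csf1r, Adgre1 (listed as Emr1), Dpt, Fap, Pdgfrb and Des were also at 0 in at least 1 library. Mural markers (4 of 8) summed to 244 to 360 CPM in Ch25h KO against 155 to 344 CPM in WT, nearly all of it Kcnj8, with 344 CPM in WT library 2. The part of these cells in the Id values was not tested. In bulk libraries fewer cells of a type and less RNA per cell cannot be told apart.

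Tgfbr1, Tgfbr2 and Smad7 shared another pattern: in both genotypes library 1 was the lowest and library 2 the highest. This order was picked after the values were seen, and whether the library numbers pair samples is not known. Any order shared by both genotypes held for 3 of the 9 members, beside 23.3% of all tested genes. The order with library 1 lowest and library 2 highest held for the same 3 members, and for 5.53% of all tested genes. It also held for 4 of 9 lymphatic markers, Prox1, the VEGFC receptor gene Flt4, Mmrn1 and Nrp2, and for 2 of 8 pan-endothelial markers, Tie1 and Kdr. The 9 lymphatic markers summed to 6972, 9442 and 9203 CPM in libraries 1, 2 and 3 of Ch25h KO, against 7739, 9976 and 8864 CPM in libraries 1, 2 and 3 of WT. Summed, the 8 pan-endothelial markers spanned a narrow range, 4932 to 5033 CPM in Ch25h KO against 4943 to 5078 CPM in WT. The largest part of this sum was Egfl7, at 2305, 1873 and 1835 CPM in libraries 1, 2 and 3 of Ch25h KO. In WT libraries 1, 2 and 3 it stood at 2021, 1539 and 1788 CPM, so it was highest in library 1 of each genotype. Tie1 and Kdr were lowest there, so the narrow sum does not show that each marker was steady. The 7 blood endothelial markers in the table, of 8 listed, summed to 1465 to 1870 CPM in Ch25h KO against 2037 to 3015 CPM in WT, mostly from Plvap. These sums did not overlap. Of the 7 markers 2 were higher and 5 lower in Ch25h KO, and 0 were called. Flt1, Plvap and Nos3, 3 of the 7, were lower without overlap, beside 5.78% of all tested genes. The 8 control genes summed to 9406 to 10273 CPM in Ch25h KO against 9000 to 11176 CPM in WT, mostly from Actb. The ratio of Tgfbr2 to Prox1 stood at 3.19, 2.88 and 2.80 in libraries 1, 2 and 3 of Ch25h KO, against 3.34, 2.46 and 2.25 in libraries 1, 2 and 3 of WT. It was highest in library 1 of each genotype, where both genes were lowest. The part of the lymphatic share of each sort in these values was not tested.

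**Figure D3:**
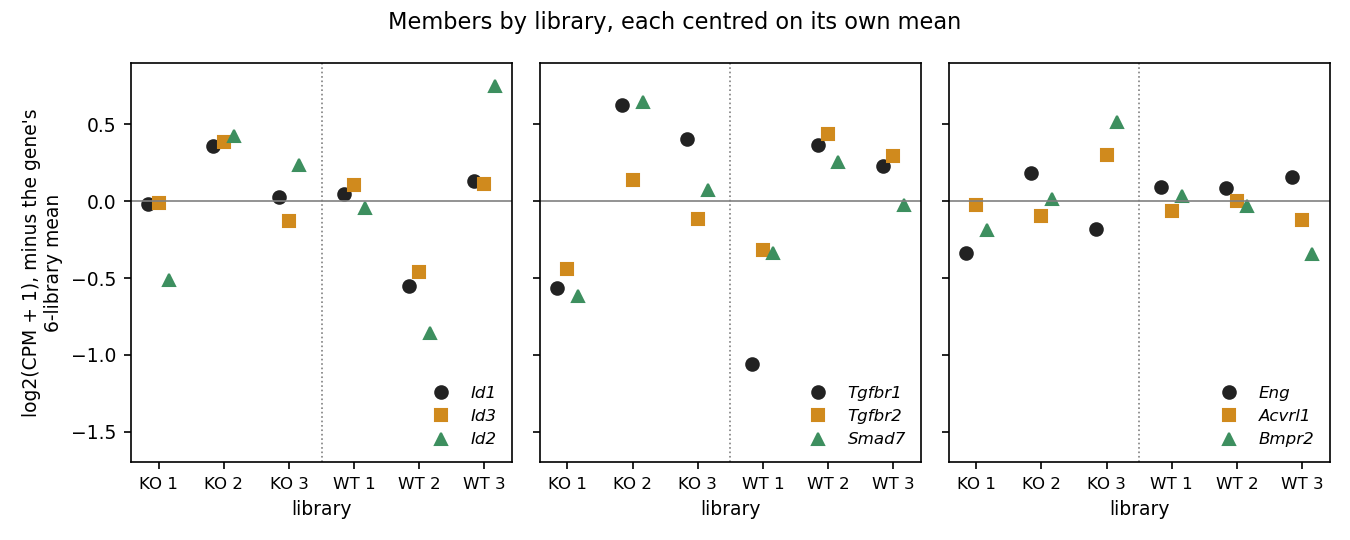
log2(CPM + 1) of the members, each centred on its mean over the 6 libraries, for Ch25h KO libraries 1 to 3 (left of the dotted line) and WT libraries 1 to 3 (right). Id1 and Id3 lie together in every library and drop in WT library 2, and Tgfbr1, Tgfbr2 and Smad7 drop in library 1 of both genotypes.

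Levels of different genes are compared per kilobase of annotated exons (CPM per kb), as means and ranges over all 6 libraries. Id3 was the highest member at 215 (153 to 276), followed by Tgfbr2 at 127 (91.0 to 168), Eng at 108 (85.0 to 122) and Id1 at 86.9 (58.0 to 110) CPM per kb. The ranges of neighbours among these 4 overlapped. With the longest transcript as the length, Tgfbr2 and Eng were level, at 128 CPM per kb each. Id2 at 16.4 (8.24 to 26.0) and Acvrl1 at 14.8 (13.6 to 18.2) CPM per kb overlapped with each other and lay below all values of Id1. Tgfbr1 followed at 2.73 (1.13 to 3.98) CPM per kb, below all values of Acvrl1. Bmpr2 at 0.423 (0.315 to 0.615) and Smad7 at 0.311 (0.113 to 0.580) CPM per kb were the lowest, and their ranges overlapped.

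By this measure the receptors were thus far from equal. How fully the reads of each gene were counted was not tested. Among the control genes, Gapdh averaged 53.3 CPM and Ppia 65.1 CPM over the 6 libraries, beside 7682 CPM for Actb. Among type II receptors Tgfbr2 stood at 114 ± 22.6 CPM per kb in Ch25h KO against 139.7 ± 36.0 CPM per kb in WT. Acvr2a, a type II receptor shared by activins and BMPs, stood at 6.61 ± 0.924 CPM per kb in Ch25h KO against 7.37 ± 2.88 CPM per kb in WT. Bmpr2 stood at 0.464 ± 0.135 CPM per kb in Ch25h KO against 0.382 ± 0.0590 CPM per kb in WT (SD, n = 3 each). Of the type I receptors Acvrl1 was the highest, at 15.5 ± 2.37 CPM per kb in Ch25h KO against 14.2 ± 0.619 CPM per kb in WT. Acvr1, a type I receptor for BMPs, stood at 3.66 ± 0.889 CPM per kb in Ch25h KO against 3.47 ± 0.556 CPM per kb in WT. Bmpr1a, the common BMP type I receptor, was under 0.135 CPM per kb in every library and at 0 in WT library 2, which at 3 reads allows up to 0.0715 CPM. Among signal-carrying Smads, Smad1 of the BMP arm led with 121 ± 2.704 CPM per kb in Ch25h KO against 126 ± 13.9 CPM per kb in WT. Smad5, of the same arm, stood at 22.6 ± 3.39 CPM per kb in Ch25h KO against 25.7 ± 0.654 CPM per kb in WT. Smad2 of the TGF-beta arm stood at 14.2 ± 3.34 CPM per kb in Ch25h KO against 10.5 ± 1.05 CPM per kb in WT. Smad3 of the TGF-beta arm stood at 4.33 ± 0.707 CPM per kb in Ch25h KO against 5.97 ± 0.389 CPM per kb in WT (SD, n = 3 each). Acvr1, Acvr2a and Bmpr1a were named after their values were seen.

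**Figure D4:**
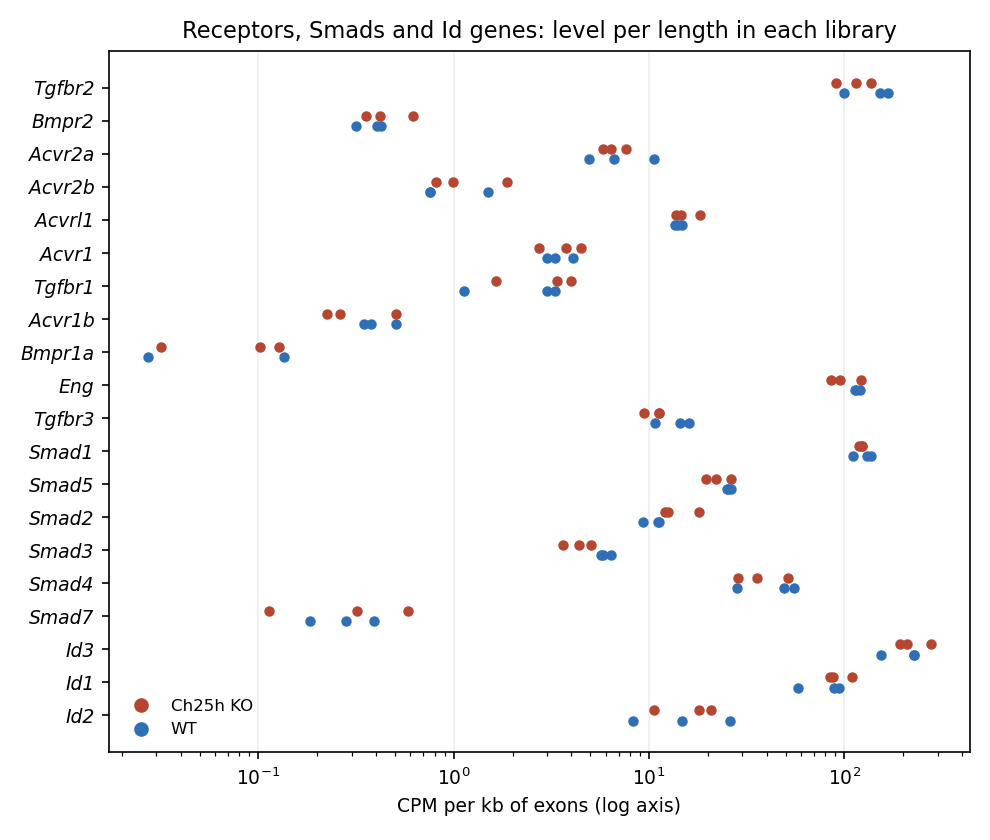
CPM per kb of annotated exons on a log axis for receptors (Tgfbr2 to Tgfbr3), Smads (Smad1 to Smad7) and Id genes, with a point per library, Ch25h KO above WT in each row. Id3, Tgfbr2, Eng and Smad1 lie near 100 or above, Bmpr2 and Smad7 under 1, and a library at 0 (Bmpr1a in WT) has no point.

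The rest of the pathway was read through 9 lists of genes. The lists are not separate. Among tested genes, Skil is both an intracellular regulator and a TGF-beta target, and Tsc22d1 is in both target lists. Bambi is in the antagonist and BMP target lists and gives the median of each. No gene of the 9 lists was called by limma over all genes, and edgeR and DESeq2 called 0 of them as well. Among 10 tested ligands 3 were higher and 7 lower in Ch25h KO, with a median log2 fold change of -0.38. Median values of the lists stand beside -0.00 over all tested genes, and the medians of the signal-carrying Smads, the antagonists and both target lists changed sign when a library was left out. At an unadjusted p under 0.05 there were 2 of 10 (limma; 2 in edgeR and 3 in DESeq2), beside 5.41% of all tested genes in limma, 5.46% in edgeR and 6.27% in DESeq2. The groups did not overlap in 4 of the 10, beside 10.2% of all tested genes: Tgfb2, Tgfb3 and, named after their values were seen, Bmp7 and Nodal.

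Tgfb2 and Tgfb3 encode isoforms of TGF-beta. Tgfb2 stood at 29.0, 36.2 and 56.6 CPM in libraries 1, 2 and 3 of Ch25h KO, against 28.7, 19.5 and 21.8 CPM in libraries 1, 2 and 3 of WT. The lowest Ch25h KO value lay just above the highest WT value. The log2 fold change was 0.74 ± 0.25 (SE; limma, adjusted p = 0.836; DESeq2, adjusted p = 0.289). Tgfb3 stood at 80.9, 109 and 90.3 CPM in libraries 1, 2 and 3 of Ch25h KO, against 114, 136 and 137 CPM in libraries 1, 2 and 3 of WT, with no overlap. Its log2 fold change was -0.47 ± 0.16 (SE; limma, adjusted p = 0.836; DESeq2, adjusted p = 0.458). Tgfb1, the most abundant ligand, averaged 253 ± 18.0 CPM in Ch25h KO against 290.5 ± 44.1 CPM in WT (SD, n = 3 each; limma, adjusted p = 0.973). Tgfb2 and Tgfb3 both have annotated transcripts on the other strand within their exons, over 124 bases for Tgfb2 (Gm29491) and over 163 (Gm37804) and 257 (Gm48008) for Tgfb3. Bmp6 averaged 2.04 ± 1.60 CPM in Ch25h KO against 4.19 ± 1.58 CPM in WT, and overlapped.

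All 10 tested genes that keep TGF-beta latent or release it had a lower mean log2 value in Ch25h KO, beside 50.4% of all tested genes. The median log2 fold change was -0.28, and at an unadjusted p under 0.05 there were 2 of 10 (limma; 2 in edgeR and 2 in DESeq2), beside 5.41% of all tested genes in limma. The groups did not overlap in 3 of 10, beside 10.2% of all tested genes. Without a library each, the median ran from -0.44 (without WT library 1) to -0.15 (without Ch25h KO library 1). The count of genes higher in Ch25h KO became 2 without Ch25h KO library 1 or WT library 3, and 1 without Ch25h KO library 3 or WT library 2. Fbn1, a fibril protein that binds latent TGF-beta complexes, averaged 188 ± 27.0 CPM in Ch25h KO against 250.2 ± 20.0 CPM in WT (SD, n = 3 each; limma, adjusted p = 0.836). Fbn1 shares 2442 exon bases with Gm9913 on the other strand. Ltbp3, which tethers latent TGF-beta to the matrix, averaged 52.7 ± 5.53 CPM in Ch25h KO against 69.2 ± 10.7 CPM in WT (limma, adjusted p = 0.913). Emilin1, which restrains TGF-beta processing, averaged 664 ± 54.1 CPM in Ch25h KO against 782 ± 36.8 CPM in WT (limma, adjusted p = 0.955). Ltbp4, the most abundant, averaged 1419 ± 131 CPM in Ch25h KO against 1670 ± 202 CPM in WT, and overlapped.

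Of 6 other receptors and co-receptors tested, 2 were higher and 4 lower (median -0.15). At an unadjusted p under 0.05 there were 0 of 6 in limma, edgeR and DESeq2, beside 5.41%, 5.46% and 6.27% of all tested genes. Without overlap there were 0 of 6, beside 10.2% of all tested genes. Tgfbr3, or betaglycan, averaged 69.6 ± 7.22 CPM in Ch25h KO against 89.9 ± 18.2 CPM in WT (SD, n = 3 each; limma, adjusted p = 0.941). Rgmb, a BMP co-receptor, averaged 18.7 ± 2.82 CPM in Ch25h KO against 21.8 ± 2.28 CPM in WT. Acvr1b, an activin type I receptor, averaged 1.46 ± 0.670 CPM in Ch25h KO against 1.81 ± 0.367 CPM in WT.

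Of 5 signal-carrying Smads tested, 1 was higher and 4 lower (median -0.18). At an unadjusted p under 0.05 there were 2 of 5 (limma; 2 in edgeR and 2 in DESeq2), beside 5.41% of all tested genes in limma. In limma these were the TGF-beta pair, Smad2 and Smad3, on opposite sides of 0. The same 2 were without overlap, beside 10.2% of all tested genes. Smad2 stood at 106, 109 and 158 CPM in libraries 1, 2 and 3 of Ch25h KO, against 81.7, 98.3 and 97.1 CPM in libraries 1, 2 and 3 of WT (log2 fold change 0.41 ± 0.18, SE; limma, adjusted p = 0.916). Smad3 stood at 27.8, 24.1 and 20.0 CPM in libraries 1, 2 and 3 of Ch25h KO, against 31.6, 32.1 and 35.6 CPM in libraries 1, 2 and 3 of WT (log2 fold change -0.46 ± 0.18, SE; limma, adjusted p = 0.836). Neither was called after adjustment. Smad5 averaged 168 ± 25.1 CPM in Ch25h KO against 190.4 ± 4.85 CPM in WT, and Smad1 760.4 ± 16.9 CPM in Ch25h KO against 787 ± 86.9 CPM in WT, both with overlap.

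Of 7 extracellular antagonists and modulators tested, 3 were higher and 4 lower (median -0.00). At an unadjusted p under 0.05 in limma there was 1 of 7, beside 5.41% of all tested genes. The same gene was the 1 without overlap, beside 10.2% of all tested genes. That gene was Fst, or follistatin, which traps activins and some BMPs, at 3.46, 4.94 and 4.74 CPM in libraries 1, 2 and 3 of Ch25h KO, against 5.15, 13.1 and 10.8 CPM in libraries 1, 2 and 3 of WT (limma, adjusted p = 0.836). Fst shares 115 exon bases with the antisense transcript Gm47040. Dcn, or decorin, averaged 77.7 ± 43.4 CPM in Ch25h KO against 52.9 ± 2.66 CPM in WT, with 127 CPM in Ch25h KO library 3. Fstl3 averaged 2.58 ± 0.527 CPM in Ch25h KO against 1.90 ± 0.734 CPM in WT, and shares 1157 exon bases with Prss57. Fstl1, the most abundant, averaged 468 ± 81.4 CPM in Ch25h KO against 480 ± 54.7 CPM in WT.

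Of 17 intracellular regulators tested, 4 were higher and 13 lower (median -0.10), where 50.4% of all tested genes were lower. At an unadjusted p under 0.05 in limma there was 1 of 17, Zfyve9, beside 5.41% of all tested genes. Zfyve9, the anchor that brings Smad2 and Smad3 to the receptor, averaged 2.14 ± 0.982 CPM in Ch25h KO against 4.59 ± 1.95 CPM in WT, with overlap (limma, adjusted p = 0.916), and shares 706 exon bases with 3110021N24Rik. The 1 regulator of 17 without overlap, beside 10.2% of all tested genes, was Strap, named after its values were seen. Strap averaged 210 ± 14.6 CPM in Ch25h KO against 183 ± 12.5 CPM in WT (limma, adjusted p = 0.973). Tab1, an activator of the kinase Tak1, averaged 25.5 ± 3.11 CPM in Ch25h KO against 34.0 ± 6.56 CPM in WT. Smurf1, a ubiquitin ligase for BMP Smads, averaged 77.0 ± 9.37 CPM in Ch25h KO against 94.8 ± 11.9 CPM in WT. Fkbp1a, which holds type I receptors inactive, was the most abundant, at 1548 ± 106 CPM in Ch25h KO against 1359 ± 119 CPM in WT (SD, n = 3 each).

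Genes known to be switched on by the pathway lay on both sides of 0. Of 18 TGF-beta targets tested 8 were higher and 10 lower (median -0.02). At an unadjusted p under 0.05 there were 0 of 18 in limma, edgeR and DESeq2, beside 5.41%, 5.46% and 6.27% of all tested genes. Without overlap there were 0 of 18, beside 10.2% of all tested genes. Bhlhe40, a transcriptional repressor, averaged 206 ± 57.1 CPM in Ch25h KO against 161 ± 17.1 CPM in WT. Cdkn1a, the cell cycle inhibitor p21, averaged 245 ± 70.1 CPM in Ch25h KO against 197 ± 39.6 CPM in WT. Acta2, smooth muscle actin and also a mural marker, averaged 8.67 ± 0.646 CPM in Ch25h KO against 11.8 ± 2.83 CPM in WT. Fn1, or fibronectin, the most abundant, averaged 3356 ± 523 CPM in Ch25h KO against 3436 ± 1090 CPM in WT (SD, n = 3 each; limma, adjusted p from 0.956 to 1.00 over the list).

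Of 7 BMP targets of endothelium tested 3 were higher and 4 lower (median -0.00), with 2 at an unadjusted p under 0.05 (limma; 2 in edgeR and 2 in DESeq2) and 1 without overlap, beside 5.41% of all tested genes at that p in limma and 10.2% without overlap. That gene was Efnb2, which encodes the arterial and valve ligand ephrin-B2. It stood at 18.0, 27.2 and 19.5 CPM in libraries 1, 2 and 3 of Ch25h KO, against 32.8, 42.1 and 41.7 CPM in libraries 1, 2 and 3 of WT. Every Ch25h KO value lay below every WT value. The log2 fold change was -0.83 ± 0.20 (SE; limma, adjusted p = 0.836; edgeR, adjusted p = 0.839; DESeq2, adjusted p = 0.131; exact permutation p = 0.1). Gja4, a connexin of arteries and lymphatic valves, stood at 15.9, 27.3 and 15.4 CPM in libraries 1, 2 and 3 of Ch25h KO, against 36.7, 21.3 and 73.5 CPM in libraries 1, 2 and 3 of WT, with overlap (limma, adjusted p = 0.874). Tmem100, a target of Acvrl1 signalling, averaged 8.68 ± 1.14 CPM in Ch25h KO against 7.86 ± 1.87 CPM in WT. Sgk1, a kinase with many inducers, was the most abundant, at 148 ± 81.2 CPM in Ch25h KO against 176 ± 116 CPM in WT (SD, n = 3 each).

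No partner of the Id proteins passed the test. All 5 tested helix-loop-helix genes had a slightly lower mean log2 value in Ch25h KO (median -0.16), beside 50.4% of all tested genes. At an unadjusted p under 0.05 there were 0 of 5 in limma, edgeR and DESeq2, beside 5.41%, 5.46% and 6.27% of all tested genes. Tcf4, the most abundant E protein gene here, averaged 788 ± 41.9 CPM in Ch25h KO against 816 ± 14.5 CPM in WT (SD, n = 3 each; limma, adjusted p = 0.985). Tcf3 averaged 154 ± 6.68 CPM in Ch25h KO against 172 ± 12.9 CPM in WT (limma, adjusted p = 0.973). It was the 1 gene of the 5 without overlap, beside 10.2% of all tested genes. Tal1 averaged 22.9 ± 3.80 CPM in Ch25h KO against 26.5 ± 6.13 CPM in WT, and Lyl1 5.92 ± 1.78 CPM in Ch25h KO against 7.13 ± 2.21 CPM in WT.

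**Figure D5:**
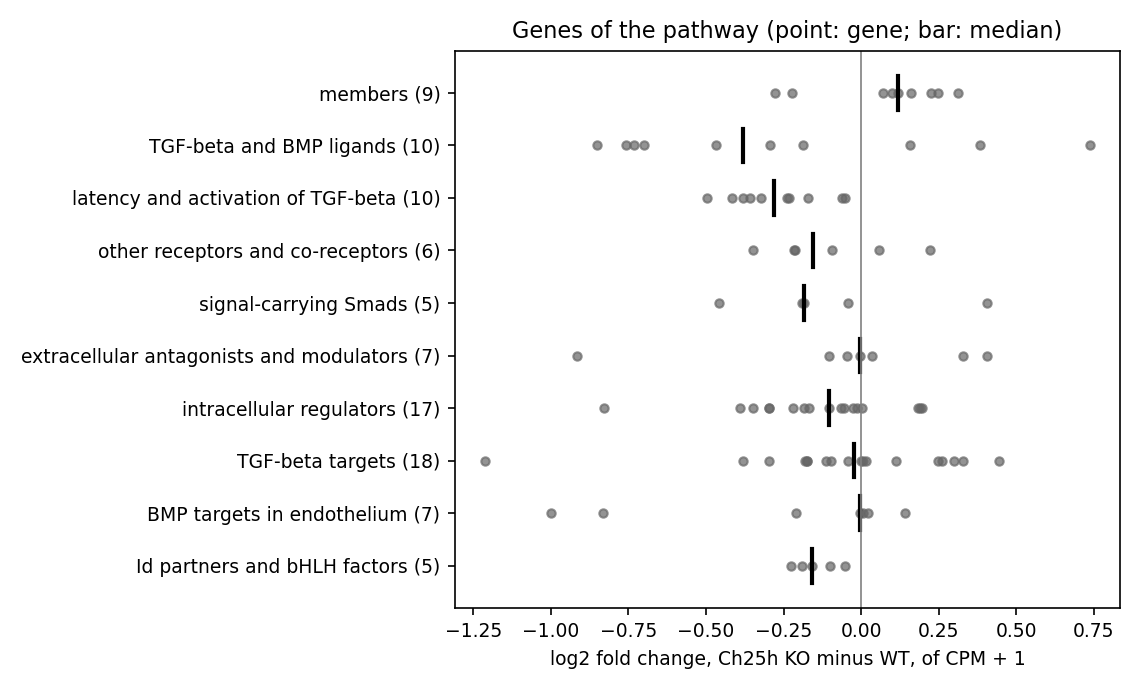
Log2 fold change, Ch25h KO minus WT on log2(CPM + 1), of each tested gene (points) and the median of each list (bars) for the 9 members and 9 lists of the pathway, with the number of tested genes in brackets. The members lie between -0.28 and 0.31, and all 10 genes of TGF-beta latency and activation lie below 0.

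In the mm10 annotation the members lie on 7 chromosomes. Tgfbr1 lies at chr4:47353222-47414931 (plus strand), Tgfbr2 at chr9:116084293-116175360 (minus strand) and Eng at chr2:32646595-32682669 (plus strand). Acvrl1 lies at chr15:101128522-101145336 and Bmpr2 at chr1:59763400-59879014, both on the plus strand. Smad7 lies at chr18:75367529-75395935 (plus strand). Id1 lies at chr2:152736251-152737410 (plus strand), Id2 at chr12:25093799-25097140 (minus strand) and Id3 at chr4:136143497-136145755 (plus strand). Exons of Eng and Acvrl1 overlap those of another gene, and those of the other 7 members do not. Among the other genes named above, Ch25h, Prox1, Ltbp3, Bmp6, Bhlhe40, Cdkn1a, Fn1, Lyl1, Acvr2a, Bmpr1a, Troap, Ppp2r5b, Cyb5r3 and Elk3 also share exon bases with a gene on the other strand, and Smad5, Tgfbr3 and Maml2 with a gene on the same strand.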

How the data were processed

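RNA of sorted tumour lymphatic endothelial cells was measured in 6 libraries. Per the labels' protocols they were prepared with SMART-Seq v4, a chemistry that does not mark strand, and Nextera XT. The authors deposited a normalized signal, which has the scale of CPM, and the submitters' processing notes name STAR 2.7.0, HTSeq 0.9.1, edgeR 3.26.8 and mm10 without roles. The sources used here do not name the annotation counted on or the filter that chose the table's genes. Every deposited value was a whole multiple of its library's smallest value above 0 (100% within 0.01 of a read), which gave back the reads. TMM factors computed from them, 0.967 to 1.02, equalled those in the columns. Without molecular identifiers, intervals and limits (3 reads for a count of 0) cover counting error only.

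Groups come from the genotype labels. The labels do not say whether each library is its own animal, so p-values reflect how much the libraries at hand vary, and that spread may be technical. No 2 libraries agreed within sampling noise. The test was limma on log2(CPM + 1), fitted to genotype alone with a variance trend. Benjamini-Hochberg adjustment ran over the 11980 genes averaging 1 CPM or more, and calls were made at 0.05. The scale understates changes of low genes. Exact permutation tests were two-sided. Tools were R 4.3.3, limma 3.58.1, edgeR 4.0.16, DESeq2 1.42.0 and Python 3.11.15, checked on simulated data. Annotation is GENCODE M21, with exon lengths as the union over transcripts. Start-site sequences are from RefSeq on GRCm38.p6, whose table has Tgfbr1, Tgfbr2, Eng, Bmpr2, Id2 and Id3.

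Members and lists were chosen with earlier results of these data known. Named by rule were the members, Ch25h, Prox1, Pdpn, Pecam1 and Ptprc, of each pathway list the 3 genes of smallest p and the most abundant, and the 5 genes nearest to Id1 and to Acvrl1. A gene that this rule named is not reported here. Also run were edgeR (quasi-likelihood) and DESeq2 on the recovered reads, a replicate block, library weights, other pseudocounts, filters, scalings and variance priors, and fits without each library.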

Additional observations from a re-analysis of the deposited data

How the results depend on the processing

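Over 11 other settings and 6 fits without a library, 0 of the 9 members were called, with a smallest adjusted p of 0.395. Of the members, Id2 changed sign with library weights (log2 fold change -0.19). Without a library each in turn, ranges crossed 0 for Tgfbr1 (-0.14 to 0.67), Smad7 (-0.24 to 0.40), Id2 (-0.30 to 0.50) and Id3 (-0.030 to 0.27). Tgfbr2 and Eng stayed below 0 and Acvrl1, Bmpr2 and Id1 above 0 in every fit. Smad7 lies below the filter of at least 5 CPM and has no value there. The number of genes called, 1 with all libraries, was 0 with a pseudocount of 0.25 CPM, 0 in edgeR (654 at an unadjusted p under 0.05), 11 in DESeq2 and 0 to 2 without a library each. Ch25h was not called with a pseudocount of 0.25 CPM (-7.26, adjusted p = 0.0779), in edgeR (-6.54, adjusted p = 0.839) or in DESeq2 (-6.54, adjusted p = 0.208). It ran from -6.52 to -5.53 without a library each, and was not called without WT library 1 (adjusted p = 0.0792). In all, 13 of 17 alternatives called it. The cause was not tested.

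Among other named genes, signs changed for the Pecam1 log2 fold change with quantile normalization (-0.000417) and Fn1 with library weights (0.12). Without a library each, ranges crossed 0 for Pecam1 (-0.078 to 0.17), Ptprc (-0.30 to 1.89), Smad1 (-0.14 to 0.020), Dcn (-0.012 to 0.74), Fstl1 (-0.16 to 0.093), Fn1 (-0.15 to 0.24), Tmem100 (-0.017 to 0.29), Sgk1 (-0.62 to 0.29), Troap (-0.083 to 0.28), Ckap2 (-0.014 to 0.20) and C2cd2l (-0.045 to 0.11). With the replicate block, the library number as a term, 1 gene was called, Ch25h, and 850 genes had an unadjusted p under 0.05, beside 648 without it. That count moved more in other fits. With library weights 772 genes were higher and 1173 lower in Ch25h KO at that p (limma). Without a library each, the count ran from 252 to 1288, so the share over all genes depends on the fit. Deviations of same-numbered libraries across genes had correlations of 0.238, -0.0617 and -0.101 for numbers 1, 2 and 3. Those of libraries with unlike numbers ran from -0.160 to 0.268. Such weak correlations cannot settle whether the numbers pair samples. The 95% interval of the fold reached 2.36 for Tgfbr1, 1.93 for Smad7 and 1.94 for Id2.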
